A study of Mus musculus castaneus and Mus musculus domesticus and Mus musculus with 11 samples.

Results

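Genes of voltage-gated sodium, calcium and potassium channels, of the other potassium channels, and of the hyperpolarization-activated HCN channels were followed in motor neurons grown from mouse embryonic stem cells of 3 lines. They were chosen by symbol alone, as Scn alpha and beta genes, Cacna, Cacnb and Cacng genes, all numbered Kcn genes and the 4 Hcn genes, and the noncoding Kcnq1ot1 was left out. This gave 132 genes among the 27071 rows of the read matrix, each annotated as protein coding. Of these, 13 encode sodium channel subunits, 25 calcium channel subunits, 4 HCN channels and 90 potassium channel subunits. The series sequenced polyadenylated RNA to compare the transcriptional identity of lines that serve to study species variation in neurite growth. The groups were 129S6/SvEv (129 here), a laboratory strain, CAST/EiJ (CAST here), a wild-derived strain, and 129CAS, a line from a CASTx129 cross (the hybrid here). Every sample is labelled as motor neurons, and neither a treatment, an age of the cultures nor a further allele is named in the labels. Each line gave 3 libraries, and the labels do not say how many stem cell clones stand behind a line or whether its libraries came from separate cultures, so the spread measured here may be technical.

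Voltage-gated channels open when the membrane potential changes. Sodium channels carry the rising phase of the action potential, calcium channels couple it to transmitter release and gene activity, and potassium channels end it and set the resting potential. In most families a pore-forming subunit (alpha or alpha1) conducts the ion, and auxiliary subunits set how many channels reach the membrane and how they gate. Potassium channels form the broadest family: the Kv channels open on depolarization, the silent Kv subunits conduct only in company with other Kv subunits, Kcnq channels carry the M-current that restrains repetitive firing, the EAG family (Kcnh) includes ERG channels, inward rectifiers (Kcnj) and two-pore channels (Kcnk) hold the resting potential, and a further group opens on intracellular calcium or sodium. Motor neurons are known for persistent sodium and calcium currents and for potassium leak currents that tune their excitability.

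Most pore-forming potassium channel subunits share a short stretch of coding sequence, shown here. It encodes the selectivity filter, the narrow part of the pore that lets potassium pass and holds sodium back. The coding sequence of each gene was searched in frame, on the coding strand, for a motif of 15 letters: a codon that begins with AC, one with T as its middle base, one that begins with GG, one that begins with T and one that begins with GG, with any base elsewhere. Below, capitals mark the motif, with 12 bases of coding sequence on each side, read from the GENCODE M21 transcripts of GRCm38. Kcna6, Kcnj5 and Kcnk9 differed between lines, and a relative of each is set beside it.
Kcna6: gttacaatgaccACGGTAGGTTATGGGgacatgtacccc
Kcna1: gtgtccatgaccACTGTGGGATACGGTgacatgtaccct
Kcnj5: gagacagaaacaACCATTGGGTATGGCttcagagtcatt
Kcnj3: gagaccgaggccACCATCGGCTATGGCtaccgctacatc
Kcnk9 site 1: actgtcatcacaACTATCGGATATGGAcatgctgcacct
Kcnk9 site 2: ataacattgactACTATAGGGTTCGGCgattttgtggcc
Kcnk3 site 1: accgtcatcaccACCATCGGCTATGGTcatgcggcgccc
Kcnk3 site 2: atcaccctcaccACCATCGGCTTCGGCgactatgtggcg
The Kcnk genes hold the motif at 2 places because 1 two-pore subunit carries both filters, whereas a Kv or Kcnj subunit carries 1 and joins others to complete the pore. The motif was present in 16 of 16 Kv alpha genes, 10 of 10 silent Kv genes, 5 of 5 Kcnq genes, 14 of 15 inward rectifiers and 11 of 13 two-pore genes, 10 of them with 2 sites. It was present in 5 of 8 calcium- or sodium-activated channels and in 1 of 8 EAG genes, and in no sodium, calcium, HCN or auxiliary gene. Among all 18205 coding genes of the matrix, 174 (0.956%) held it. Kcnk7, another gene that differed between lines, held no match to these letters. Only this form of the motif was searched, so a gene without a match is not shown to lack a filter.

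Total counts per library ran from 7763077 (hybrid 2) to 18167577 (129 1), and the channel genes took between 0.217% (hybrid 2) and 0.624% (129 3) of them. Levels are given as CPM, each count set against the TMM-scaled total of its library, and, between genes, as CPM per kb of exon. The neuronal marker list (11 genes, Tubb3 and Map2 among them) summed to between 5143 and 12261 CPM in 129, 5120 and 13616 in hybrid libraries and 6617 and 15392 in CAST. The motor neuron list (9 genes) summed to 529 to 1948, 634 to 1487 and 729 to 3457 CPM, and each of its genes was detected, with the transcription factor Lhx3 at 0 in hybrid 1 alone. Markers of other cells were present too. Fibroblast markers summed to 7544 to 30962 CPM in 129, 1700 to 39309 in hybrid libraries and 994 to 10106 in CAST. Astrocyte and radial glia markers summed to 1326 to 3479, 3278 to 6408 and 3424 to 3839 CPM, smooth muscle markers to 1194 to 5832, 1204 to 13077 and 2042 to 6411 CPM, and oligodendrocyte markers to 60.8 to 128, 37.2 to 69.7 and 8.78 to 29.8 CPM. Microglia and blood markers (6 genes) summed to 4.002 to 7.47 CPM in 129, 26.3 to 45.4 in hybrid libraries and 6.81 to 18.6 in CAST, so that the hybrid lay above both parents. Most of this sum in hybrid 1, 2 and 3 was 1 gene, Cx3cr1 (35.3 of 42.6, 19.1 of 26.3 and 31.6 of 45.4 CPM). In bulk RNA, fewer cells of a type and less RNA per cell cannot be told apart, and the part of these cells in the channel levels was not tested.

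Of the 132 genes, 114 passed the expression filter and were tested, and 18 did not. The 18 held 414 of the 503448 channel counts (0.0822%), with Kcnq1 (96 counts) and Kcnj14 (54 counts) the best covered. Kcnq1, the cardiac and epithelial Kcnq channel, was at 10.1 CPM in hybrid 2 and at most 0.78 CPM in any other library. The counts were concentrated: 5 genes held 24.1% of them, 10 held 39.8% and 20 held 60.8%.

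Per kb of exon, small auxiliary subunits were among the highest. Cacnb3, a calcium channel beta subunit that brings the alpha1 subunit to the membrane, had a mean level of 44.5 CPM per kb over the 9 libraries. Cacng7 (32.8), Cacng4 (30.4) and Cacng5 (25.8 CPM per kb) were below it, 3 gamma subunits better known as partners of AMPA receptors. The spread of each over libraries (SD of 33.6 CPM per kb for Cacnb3 and 14.995 for Cacng7) exceeded the steps between them, so the order among them is not fixed by these data.

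Among the sodium channel alpha subunits, Scn3a (10.4 CPM per kb), the form of embryonic and young neurons, Scn2a (9.34) and Scn8a (7.10), the axonal forms of central neurons, were the highest. Among the calcium channel alpha1 subunits, Cacna1a (14.8 CPM per kb) and Cacna1b (13.3), which carry the P/Q-type and N-type currents of transmitter release, were ahead of Cacna1h (7.56), a T-type channel. Cacna2d1 (18.4 CPM per kb), the alpha2delta subunit bound by gabapentin, was above Cacna2d3 (5.55). Among the HCN channels, which carry a depolarizing current on hyperpolarization, Hcn3 (13.6 CPM per kb) and Hcn2 (12.5) were above Hcn4 (4.20).

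Among the potassium channels, Kcnh2 (12.4 CPM per kb), the ERG channel, was the highest. Kcnq3, a subunit of the M-channel, stood at 5.55 CPM per kb. Kcna6 (7.03), a delayed rectifier, and Kcnc4 (6.91 CPM per kb), a member of the Kv3 family of fast-spiking cells, led the Kv alpha genes and were within their spread of each other. Kcnk1 (6.38) and Kcnk3 (5.78) led the two-pore channels, Kcnmb4 (5.51) and Kcnip1 (5.48) the auxiliary subunits and Kcnma1 (3.002 CPM per kb), the large-conductance BK channel, the calcium-activated ones. These are ranks over all 9 libraries. For the inward rectifiers and the silent subunits the leading gene depended on the line. Among the inward rectifiers Kcnj8 was at 6.35 CPM per kb in the hybrid, but at 2.29 in 129 and 1.19 in CAST. There Kcnj5 (4.55) and Kcnj2 (3.89) were the highest in 129, and Kcnj3 (4.11 CPM per kb) in CAST. Among the silent subunits Kcns1 was at 5.02 CPM per kb in CAST and at 2.39 and 1.74 in 129 and the hybrid, where Kcng1 (2.72 in 129) and Kcns3 (2.28 in the hybrid) were above it.

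**Figure D1:**
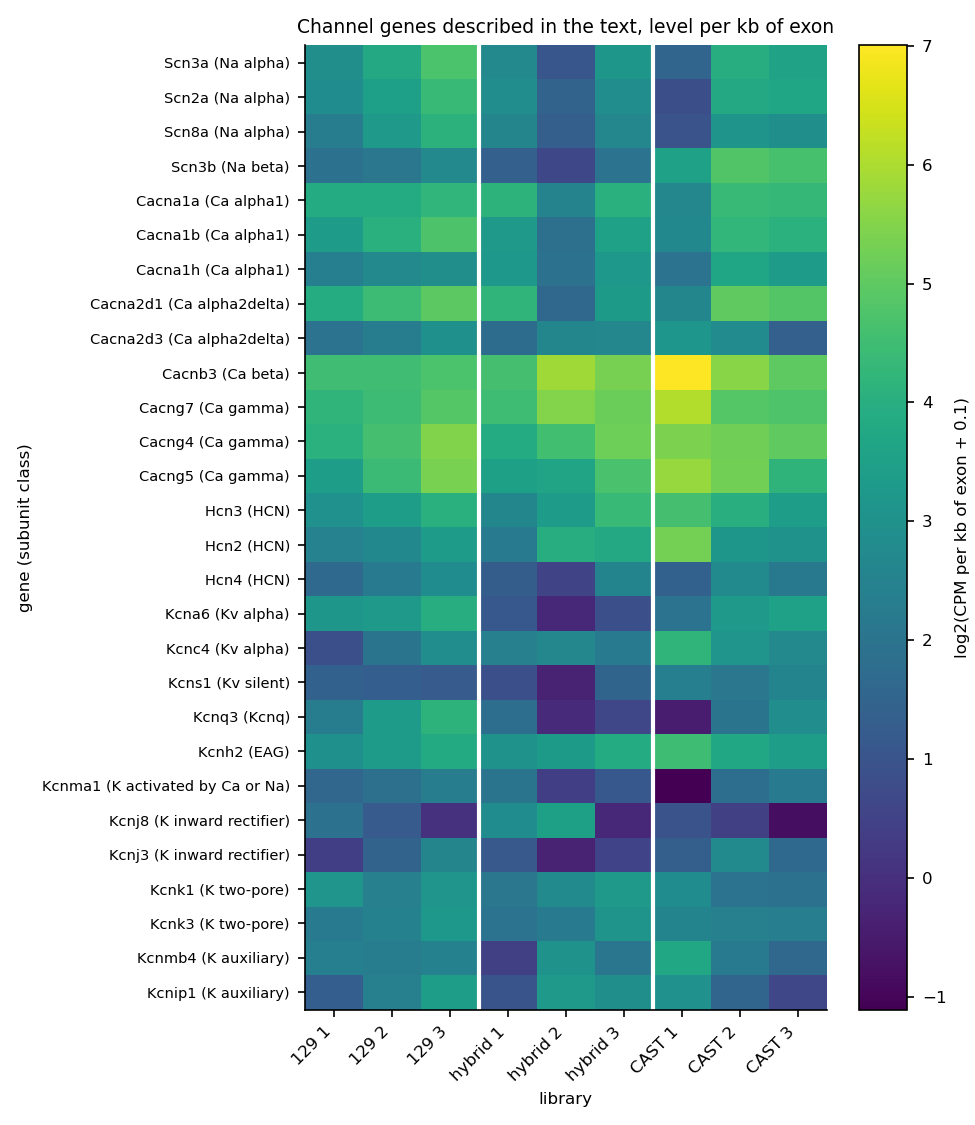
Level of the well-expressed channel genes named in the text, ordered by subunit class (rows), in each of the 9 libraries (columns), as log2 of CPM per kb of exon plus 0.1 (colour scale). Cacnb3 and Cacng7 are brightest in CAST 1, where the long genes Scn2a, Kcnq3 and Kcnma1 are dark. White lines part the 3 lines.

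Summed by class, the channel genes came to 4303 ± 1685 CPM in 129, 2867 ± 498 in hybrid libraries and 4120 ± 555 in CAST (SD, n = 3). The single libraries were 2867, 3884 and 6157 CPM in 129, 2895, 2356 and 3351 in hybrid libraries and 3545, 4652 and 4164 in CAST. The 129 libraries overlapped with both other lines, while the 3 hybrid libraries all lay below the 3 CAST libraries. Sodium channel alpha subunits summed to 682 ± 397 CPM in 129, 295 ± 134 in hybrid libraries and 435 ± 292 in CAST (SD, n = 3), and the lines overlapped. The 129 libraries alone ran from 339 to 1118 CPM in this class, a wider span than that between the means of the lines.

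Sodium channel beta subunits were lowest in 129 and highest in CAST: 124 ± 11.4 CPM in 129, 163 ± 54.6 in hybrid libraries and 294 ± 54.5 in CAST (SD, n = 3). All 3 CAST libraries (356, 252 and 275 CPM) lay above the 6 others, of which hybrid 2 was the highest (223 CPM). Kcnq channels summed to 424 ± 240, 160 ± 49.7 and 284 ± 102 CPM in 129, the hybrid and CAST (SD, n = 3), and Kv alpha subunits to 392 ± 145, 184 ± 47.5 and 322 ± 115 CPM. In both classes all hybrid libraries were below all 129 libraries, and the hybrid and CAST overlapped. Two-pore channels summed to 179 ± 75.8 CPM in 129, 77.3 ± 24.3 in hybrid libraries and 81.3 ± 6.09 in CAST (SD, n = 3). Here all 3 libraries of 129 (125, 147 and 266 CPM) lay above all 6 others, whose highest was hybrid 3 (105 CPM). In this class Kcnk9 alone had means of 83.7 ± 49.7, 10.3 ± 5.41 and 8.91 ± 5.96 CPM in 129, the hybrid and CAST (SD, n = 3). Sums over chosen genes were not tested.

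**Figure D2:**
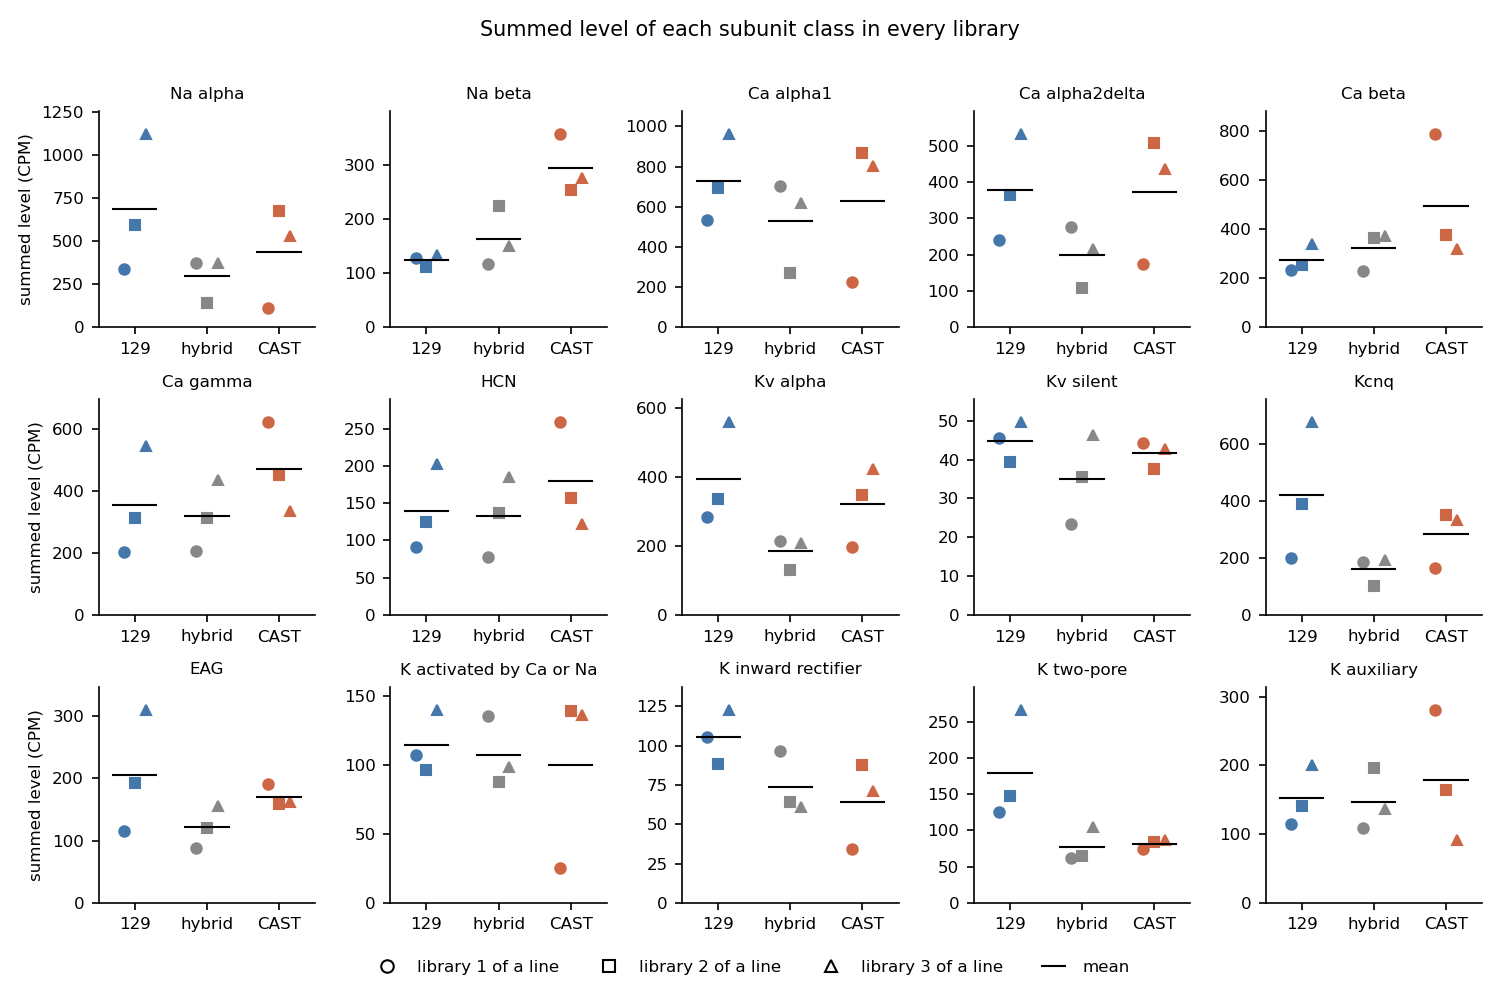
Summed level of each subunit class (CPM, vertical axes from 0) in each library, by line, with circles, squares and triangles for libraries 1, 2 and 3 of a line and a bar for the mean. CAST 1 is the lowest CAST library for Na alpha (108 CPM) and the highest for Ca beta (788 CPM), and 129 3 is the highest 129 library in every class.

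CAST against 129 asked how the parental lines differ. Only 2 of 114 channel genes passed the test (1.75%), against 0.917% of all 14839 genes tested, by the quasi-likelihood test of edgeR at a Benjamini-Hochberg adjusted p under 0.05. Kcnj5, a cardiac and neuronal inward rectifier opened by G proteins, was lower in CAST (1 gene, against 0.526% of all genes called lower), and Kcnmb3, an auxiliary subunit of the BK channel, was higher (1 gene, against 0.391%). At an unadjusted p under 0.05 there were 18 channel genes (15.8%, against 14.6% of all genes), and in 23 the groups did not overlap (20.2%, against 28.6%). The median log2 fold change was −0.21 over the tested channel genes and 0.06 over all genes, and 46 of 114 were positive (40.4%, against 52.4%).

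Kcnj5 (ENSMUSG00000032034, chr9:32314707-32344350, minus strand, GRCm38) stood at 19.6, 22.2 and 22.1 CPM in the 129 libraries, 6.65, 4.61 and 8.04 in hybrid libraries and 0.93, 1.63 and 3.44 in CAST. The 3 lines did not overlap, with 129 highest, the hybrid between and CAST lowest. The log2 fold change of CAST against 129 was −3.40 (SE 0.51, adjusted p = 0.0202 by edgeR), a 10.5-fold lower level. The hybrid differed from 129 by −1.72 (adjusted p = 0.0638) and from CAST by 1.68 (adjusted p = 0.0875), neither past the threshold by edgeR. Kcnj3, which joins Kcnj5 in the G protein-gated channel, was at 6.28, 14.0 and 30.9 CPM in 129 and 12.8, 35.3 and 16.2 in CAST, with overlapping groups and a log2 fold change of 0.33 (adjusted p = 0.795 by edgeR).

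Kcnmb3 (ENSMUSG00000091091, chr3:32471588-32492231, minus strand) had 2 counts in the 129 libraries together, 32 in hybrid libraries and 213 in CAST. Its level was 0.11, 0 and 0 CPM in 129, 1.27, 1.26 and 0.35 in hybrid libraries and 3.51, 7.52 and 3.23 in CAST, so the 3 lines did not overlap. The gene passed the filter only through CAST, and in this sense had to be high there to be tested. After scaling for library size, CAST held 133 times the 129 counts (95% counting interval 36.4 to 1106, counting error only), with an adjusted p of 0.0253 by edgeR. The pore it joins, Kcnma1, was at 48.3, 61.3 and 84.0 CPM in 129 and 6.19, 57.8 and 77.6 in CAST, with a log2 fold change of −0.45 (adjusted p = 0.760 by edgeR). Another BK subunit, Kcnmb4, was at 17.0, 16.5 and 17.8 CPM in 129 and 44.6, 14.99 and 9.75 in CAST, also without a call. Antisense genes cover 31.1% of the exon length of Kcnj3 and 31.5% of that of Kcnmb4, so their values carry the doubt about strand described below for Kcna6.

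Scn3b, a sodium channel beta subunit, and Kcnk9, the acid-sensitive two-pore channel TASK-3, had the next smallest p values. Scn3b was at 20.01, 22.9 and 35.6 CPM in 129 and 62.9, 150 and 135 in CAST, without overlap, and its log2 fold change was 2.15 (SE 0.49, adjusted p = 0.0840 by edgeR). Kcnk9 was at 41.2, 71.5 and 138 CPM in 129 and 2.06, 13.0 and 11.7 in CAST, again without overlap, at −3.22 (SE 0.75, adjusted p = 0.0900). DESeq2 called both (adjusted p = 0.00122 and 0.00029), as did the fit with an offset for exon length (0.0237 and 0.0336). Kcnh6, an ERG channel, at 2.73 and Kcng1, a silent subunit, at −3.12 completed the 3 smallest p values in each direction (adjusted p = 0.156 and 0.233 by edgeR). Kcng1 had 0 counts in CAST 1, 0.84 and 3.30 CPM in CAST 2 and 3 and 7.18 to 20.96 CPM in 129.

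The call of Kcnj5 was lost without 129 1 (adjusted p = 0.0647 by edgeR), 129 2 (0.107), 129 3 (0.0899) or CAST 2 (0.105), and that of Kcnmb3 without 129 1 (0.0610), 129 2 (0.142), 129 3 (0.121), CAST 2 (0.0846) or CAST 3 (0.0515). Without 129 3 the median log2 fold change of the channel genes was 0.13 with 65 of 117 positive, and with the length offset it was −0.02.

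The hybrid against 129 gave 6 calls among the 114 channel genes (5.26%), against 7.02% of all genes. Kcna6, Kcnk9 and Kcnh1 were lower in the hybrid (3 genes, 2.63% against 1.6% of all genes called lower), and Cacna1f, Kcnk7 and Kcnmb3 were higher (3 genes, 2.63% against 5.41%). The lower genes are potassium channels at 34.4 CPM or more in every 129 library, whereas the higher ones stayed under 3 CPM in every hybrid library. In 24 channel genes the groups did not overlap (21.1%, against 37.5%), and 17 had an unadjusted p under 0.05 (14.9%, against 22.2%). The median log2 fold change was −0.34 against 0.02 over all genes, and 42 of 114 were positive (36.8%, against 50.7%). With 1 library left out this median ran from −0.47 (without hybrid 3) to −0.06 (without 129 3, 55 of 117 positive). With the length offset it was −0.18, and 51 of 114 were positive.

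Kcna6 (ENSMUSG00000038077, chr6:126708329-126740674, minus strand) encodes a delayed rectifier of the Kv1 family, a kind of channel known from axons and their terminals. It stood at 53.1, 55.3 and 91.1 CPM in the 129 libraries, 12.3, 4.61 and 10.3 in hybrid libraries and 22.8, 57.7 and 68.7 in CAST. The 3 hybrid libraries lay below all 6 parental libraries. Against 129 the log2 fold change was −2.86 (SE 0.54, adjusted p = 0.0114 by edgeR), a 7.27-fold lower level, and the call was kept in all 17 alternative analyses. An antisense gene, Gm26673, covers 39.6% of its exon length, and it has no row in the matrix analysed here. The strand setting of the counting is not given in the sources used here, so reads of both genes cannot be told apart. Kcna1, the Kv1 gene 61.9 kb away, was at 1.95, 2.81 and 7.01 CPM in 129 and 0.92, 1.96 and 2.52 in the hybrid, with overlap and without a call (log2 fold change −1.13, adjusted p = 0.411 by edgeR).

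Kcnk9 (ENSMUSG00000036760, chr15:72501089-72546340, minus strand) was at 8.42, 6.01 and 16.4 CPM in the hybrid, below each 129 library named above and overlapping with CAST. Its log2 fold change of the hybrid against 129 was −3.02 (SE 0.74, adjusted p = 0.0403 by edgeR), an 8.12-fold lower level. The related acid-sensitive channel Kcnk3 (TASK-1), which can pair with it, was at 17.9, 21.4 and 36.3 CPM in 129, 15.4, 18.3 and 33.7 in hybrid libraries and 22.9, 20.8 and 20.2 in CAST. These lines overlapped, and the log2 fold change of Kcnk3 was −0.17 in the hybrid and −0.24 in CAST against 129 (adjusted p = 0.811 and 0.755 by edgeR).

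Kcnh1 (ENSMUSG00000058248, chr1:192190774-192510159, plus strand), the founding member of the EAG family, was at 34.4, 59.6 and 96.98 CPM in 129, 17.5, 9.92 and 23.5 in hybrid libraries and 26.5, 38.6 and 49.9 in CAST. The hybrid libraries lay below all 6 others. The log2 fold change against 129 was −1.90 (SE 0.49, adjusted p = 0.0494 by edgeR), a 3.73-fold lower level close to the threshold, and 12 of 17 alternative analyses did not call it. Kcnh2, the ERG channel of the same family, was at 37.7, 49.7 and 69.1 CPM in 129 and 40.0, 47.5 and 71.1 in the hybrid (log2 fold change 0.02, adjusted p = 0.980 by edgeR).

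Cacna1f (ENSMUSG00000031142, chrX:7607083-7635196, plus strand), the L-type alpha1 subunit known from photoreceptor synapses, was at 0.06, 0.06 and 0.17 CPM in 129, 1.34, 1.54 and 1.47 in hybrid libraries and 0 in all 3 CAST libraries. Kcnk7 (ENSMUSG00000024936, chr19:5704367-5707109, plus strand), a two-pore subunit not known to conduct by itself, was at 0.22, 0 and 0.11 CPM in 129, 1.06, 2.24 and 1.54 in hybrid libraries and 0, 0.06 and 0.07 in CAST. Both were higher in every hybrid library than in any parental one, and both passed the filter only through the hybrid, so that they had to differ. Some glial markers had the same pattern over the lines. Cx3cr1, the fractalkine receptor of microglia, was at 35.3, 19.1 and 31.6 CPM in hybrid libraries and at most 1.34 in the others. Mog, a myelin protein of oligodendrocytes, was at 13.1, 5.59 and 22.5 CPM in hybrid libraries and at most 0.56 in the others. EdgeR called both higher in the hybrid against 129 (adjusted p = 0.00409 and 0.0337) and against CAST (0.0113 and 0.0168). Cx3cr1 and Mog also passed the filter only through the hybrid, so they had to be high there to be tested. Of the other 5 genes of the microglia and blood list, Csf1r (4.33 to 13.4 CPM in hybrid libraries) overlapped with the parents and was not called, Ptprc and Aif1 reached at most 2.51 and 0.35 CPM in the hybrid, and both haemoglobin genes were at 0 in all 9 libraries. The part of such cells in the levels of Cacna1f and Kcnk7 was not tested. Their counts were low, 51 against 5 for Cacna1f and 53 against 6 for Kcnk7 in hybrid libraries and 129. The log2 fold changes were 3.79 (SE 0.71, adjusted p = 0.0174) for Cacna1f and 3.70 (SE 0.87, adjusted p = 0.0332) for Kcnk7 by edgeR. Kcnmb3 had 32 counts in the hybrid against 2 in 129, 23.3 times as many after scaling for library size (95% counting interval 5.94 to 200, adjusted p = 0.0354 by edgeR). The L-type channels of most neurons, Cacna1c (82.2, 96.8 and 132 CPM in 129 and 89.9, 29.2 and 37.0 in the hybrid) and Cacna1d (12.3, 18.9 and 27.2 in 129 and 13.4, 13.3 and 18.1 in the hybrid), overlapped between these lines.

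Apart from Kcna6, each call in this comparison was lost without 129 2 (adjusted p between 0.0963 for Kcnk9 and 0.145 for Kcnmb3 by edgeR) and without 129 3 (between 0.0583 for Cacna1f and 0.192 for Kcnh1). Cacna1f was also lost without 129 1 (0.0966) or hybrid 3 (0.0593), and Kcnk7 without 129 1 (0.0643), hybrid 2 (0.0740), hybrid 3 (0.0823), CAST 2 (0.0627) or CAST 3 (0.0576). Kcnmb3 was lost without hybrid 1 (0.0700), hybrid 2 (0.0855), CAST 2 (0.0509) or CAST 3 (0.05, at the threshold). Kcnk9 was lost without any 1 hybrid library (0.0831, 0.146 and 0.0624 without 1, 2 and 3), CAST 2 (0.0530) or CAST 3 (0.0523), and Kcnh1 likewise (0.0842, 0.149 and 0.0733) and without CAST 2 (0.0767) or CAST 3 (0.0597). Without CAST 1, which is in neither group but enters the shared estimate of the spread, 11 channel genes were called, and 11.2% of all genes.

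Among the channels best known for motor neuron excitability, edgeR with all 9 libraries called Kcnk9 alone in this comparison, while it called 7.02% of all genes. In so short a list, 1 call is no result about the list. Scn1a was at 22.7, 40.2 and 74.3 CPM in 129 and 14.7, 4.75 and 18.7 in the hybrid, without overlap (log2 fold change −1.84, adjusted p = 0.206 by edgeR). Kcnq3 was at 70.3, 149.95 and 257 CPM in 129 and 50.7, 12.2 and 21.1 in the hybrid, also without overlap (−2.50, adjusted p = 0.144 by edgeR). DESeq2 called Kcnq3 (−2.51, adjusted p = 0.0224), and so did edgeR without CAST 1 (−2.49, adjusted p = 0.0469). Kcnd2 and Kcnj2, which carry an A-type current and an inward rectifier current, had log2 fold changes of −1.79 (adjusted p = 0.208) and −1.63 (adjusted p = 0.213 by edgeR). Cacna1a, Cacna1g, Cacna1h and Hcn2 lay between −0.29 and 0.61, with adjusted p from 0.578 to 0.801. A p above the threshold does not show that these levels were equal.

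**Figure D3:**
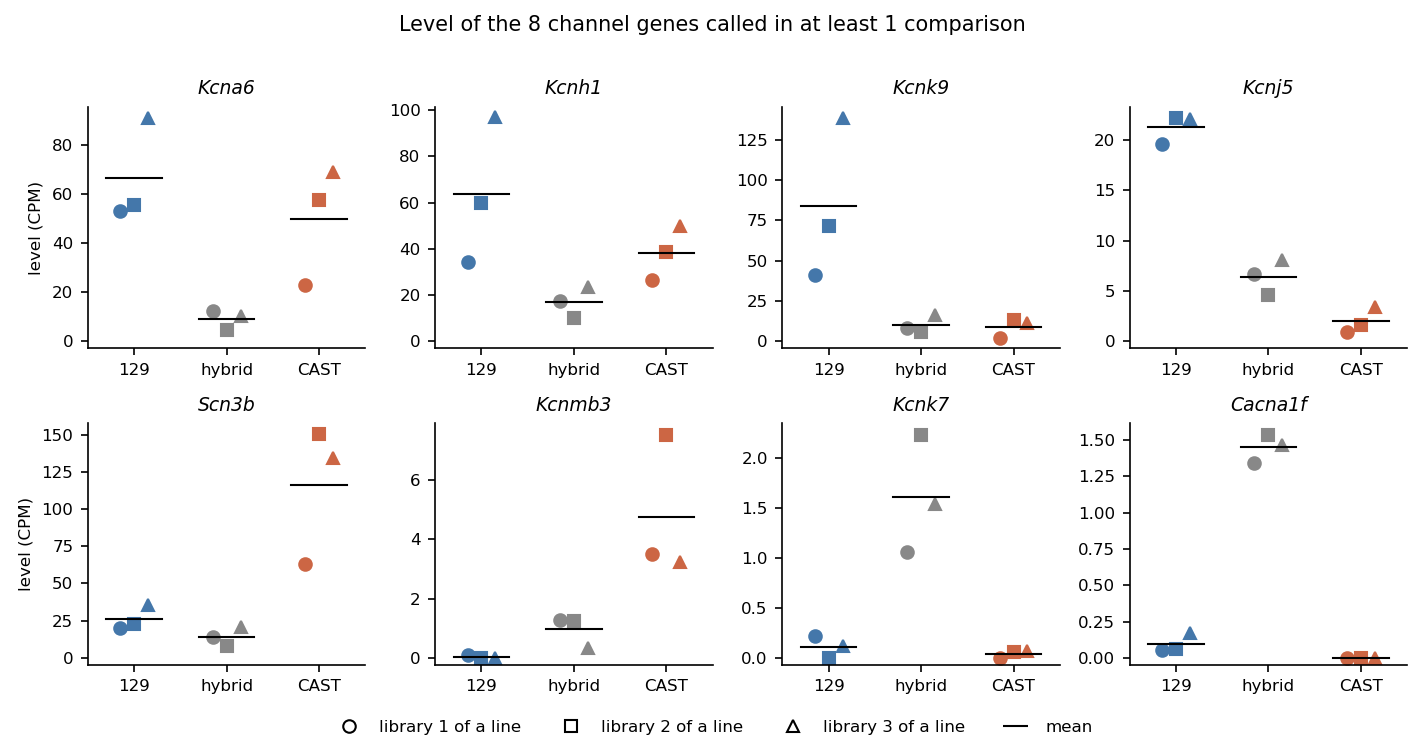
Level (CPM, linear axes) of the 8 channel genes called in at least 1 comparison, in each library, by line, with circles, squares and triangles for libraries 1, 2 and 3 and a bar for the mean. Kcna6 and Kcnh1 are lowest in the hybrid, Kcnj5 and Kcnk9 are highest in 129, Scn3b is highest in CAST, and Kcnmb3, Kcnk7 and Cacna1f have levels under 8 CPM throughout.

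The hybrid against CAST gave 4 calls among 114 channel genes (3.51%), against 6% of all genes. Scn3b and Kcna6 were lower in the hybrid than in CAST (2 genes, 1.75% against 1.6% of all genes called lower), and Cacna1f and Kcnk7 were higher (2 genes, 1.75% against 4.41%). In 21 channel genes the groups did not overlap (18.4%, against 19.2%), and 16 had an unadjusted p under 0.05 (14.0%, against 15.8%). The median log2 fold change was −0.24 against −0.08 over all genes, and 44 of 114 were positive (38.6%, against 45.4%). With 1 library left out this median ran from −0.38 (without hybrid 3) to −0.02 (without CAST 2, 56 of 116 positive). With the length offset it was −0.04 against −0.07 over all genes, and 52 of 114 were positive. The 3 comparisons share libraries, so their values for a gene are not independent of each other.

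Scn3b (ENSMUSG00000049281, chr9:40269217-40291618, plus strand) encodes a beta subunit that binds sodium channel alpha subunits without a covalent bond. It was at 13.7, 7.96 and 20.96 CPM in the hybrid, all below the CAST libraries (62.9, 150 and 135) and overlapping with 129 (20.01 to 35.6). The log2 fold change of the hybrid against CAST was −3.02 (SE 0.51, adjusted p = 0.00650 by edgeR), an 8.13-fold lower level, and all 17 alternative analyses called it. The alpha subunits Scn2a, Scn3a and Scn8a had log2 fold changes of −0.73, −0.77 and −0.29 (adjusted p from 0.742 to 0.912 by edgeR).

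Kcna6 was 5.45-fold lower in the hybrid than in CAST (log2 fold change −2.45, SE 0.53, adjusted p = 0.0243 by edgeR). Cacna1f had 51 counts in hybrid libraries and 0 in CAST, at least 19.8-fold higher against a floor of 3 counts over the group (adjusted p = 0.00528 by edgeR, called in all 17 alternatives). Kcnk7 had 53 counts against 2, which is 30.9 times as many after scaling (95% counting interval 8.13 to 261, adjusted p = 0.0185 by edgeR). The call of Kcna6 was lost without hybrid 2 (adjusted p = 0.0774 by edgeR), hybrid 3 (0.0718), CAST 2 (0.0752) or CAST 3 (0.0823), and that of Kcnk7 without CAST 1 (0.0502), CAST 2 (0.0921) or CAST 3 (0.0784). Kcns1, a silent subunit, was at 4.74, 1.96 and 7.48 CPM in hybrid libraries and 13.9, 11.4 and 15.5 in CAST, without overlap (−1.51, adjusted p = 0.111 by edgeR).

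**Figure D4:**
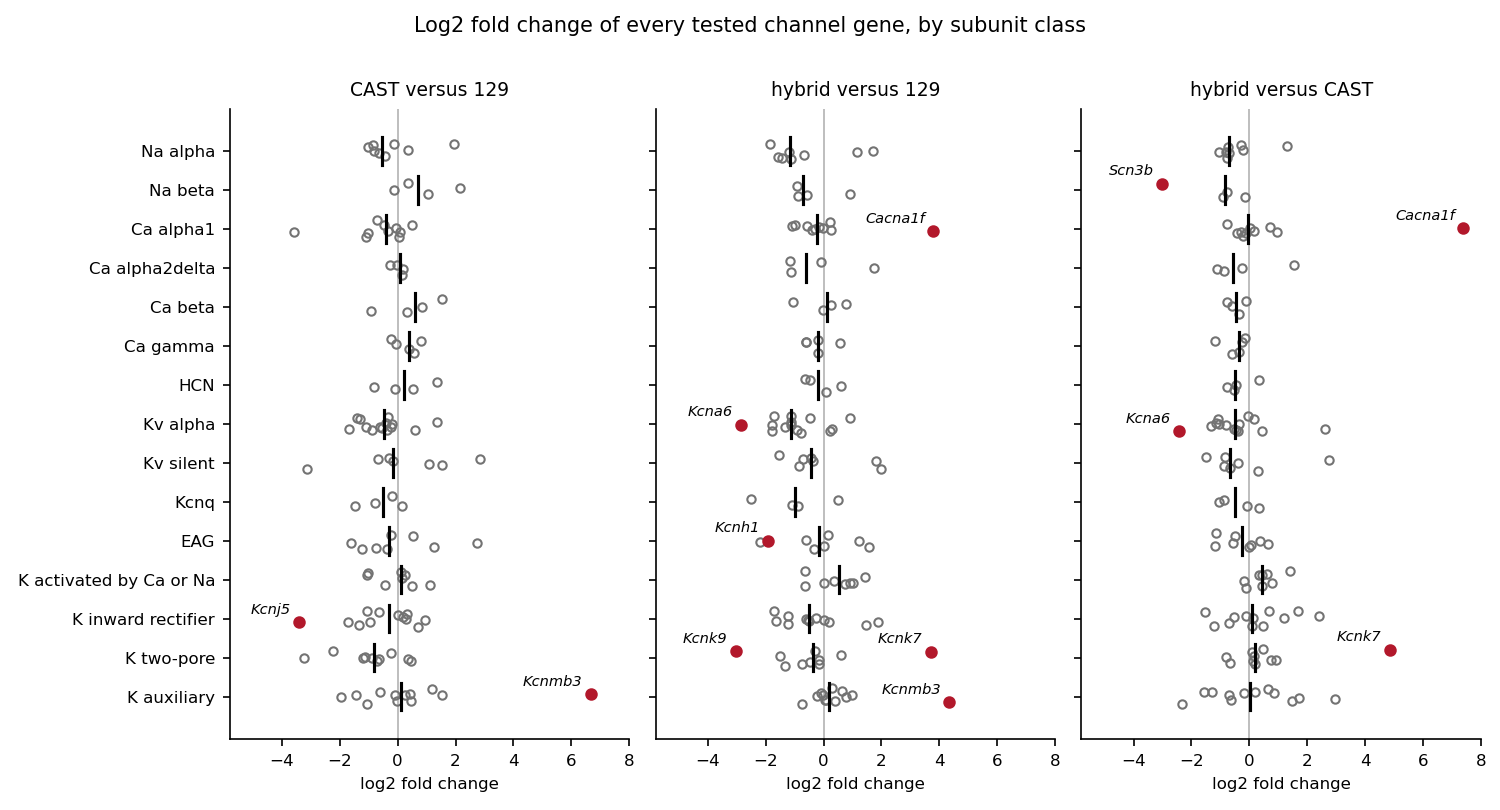
Log2 fold change (horizontal axes) of each of the 114 tested channel genes in the 3 comparisons, by subunit class (rows), with a bar for the class median and filled points for genes called by edgeR. The 12 calls lie in 7 classes, and the value of Cacna1f against CAST is a fitted one against 0 counts and no measure of its size.

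Set against both parents, 2 channel genes had all 3 hybrid libraries above all 6 parental ones (Cacna1f and Kcnk7, among 7.21% of all genes), and 3 had them below (Kcna6, Kcnh1 and Kcnk10, among 4.33%). Kcnk10, the mechanosensitive two-pore channel TREK-2, was at 12.9, 6.99 and 14.2 CPM in the hybrid, 24.4, 25.9 and 47.4 in 129 and 15.6, 18.3 and 25.7 in CAST. It was singled out after its values were seen, and edgeR with all 9 libraries called it in no comparison.

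By class, Kv alpha genes leaned to lower values in both comparisons of the hybrid: 11 of 14 were below 0 against 129 (median −1.13) and 11 of 14 against CAST (median −0.49), with 1 call, Kcna6, in each. Sodium alpha subunits were below 0 in 6 of 8 genes against 129 (median −1.15) and 7 of 8 against CAST (median −0.72), with 0 calls by edgeR, DESeq2 or limma-voom and 1 gene and 0 genes at an unadjusted p under 0.05. All 4 sodium beta genes and all 4 calcium beta genes were below 0 in the hybrid against CAST (medians −0.84 and −0.47), with Scn3b the only call. Calcium- or sodium-activated potassium channels leaned the other way, with 6 of 8 above 0 against 129 (median 0.54) and against CAST (median 0.42). EdgeR called 0 of them, with 1 and 0 at an unadjusted p under 0.05, and DESeq2 called 1, Kcnn1 against 129. These medians are descriptions and were not tested, and the values of all genes in the comparisons above are their background.

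Within lines, single libraries moved many channel genes together. In 129, library 3 was the highest of its line for 87 of 114 genes (76.3%, against 44.7% of all genes) and library 1 the lowest for 74 (64.9%, against 40.6%). The same libraries ran from low to high in neuronal markers (5143, 7753 and 12261 CPM in 129 1, 2 and 3) and motor neuron markers (529, 1122 and 1948 CPM), while fibroblast markers were at 30962, 29711 and 7544 CPM. The part of this in the channel levels was not tested.

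Channel genes are long: their median exon length was 4811 bases, against 2573 over all rows, and 114 of the 132 were above that second value. CAST 1 and hybrid 2 held less of long transcripts, as their slopes of relative log2 level on log2 exon length show (−0.495 and −0.603 per doubling, against −0.246 to 0.307 in the other libraries). The slopes also differed by line: those of 129 (0.255, 0.278 and 0.307) all lay above those of hybrid 1, 2 and 3 (0.0659, −0.603 and −0.246). In the hybrid against 129, line and this slope therefore cannot be told apart, also with hybrid 2 left out. CAST 1 was the lowest CAST library for 48 of the 57 channel genes with long exons and the highest for 30 of the 57 with short exons. Hybrid 2 was the lowest hybrid library for 38 of the long ones and the highest for 28 of the short ones. Across the 114 genes, the log2 difference of CAST 1 from the mean of CAST 2 and 3 ran with log2 exon length at r = −0.59 (rho = −0.61), and that of hybrid 2 at r = −0.51 (rho = −0.55). Genes of 1 library share its depth and preparation, so these are descriptions. Over all genes the values were −0.51 and −0.47.

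By kind of subunit the same libraries were uneven. In CAST 1 the 85 pore-forming genes had a median difference of −0.89 on the log2 scale and the 29 auxiliary genes one of 0.50, with median exon lengths of 5586 and 4191 bases. In hybrid 2 the medians were −0.25 and 0.64. Sodium alpha subunits were at −2.46 in CAST 1 (7 of 8 below 0) and Kv alpha subunits at −1.90 (12 of 14), while calcium gamma subunits were at 1.03 (4 of 5 above 0) and potassium auxiliary subunits at 0.68. In hybrid 2 these 4 classes were at −1.35, −0.54, 0.01 and 0.78. Not every class went with its kind. The auxiliary sodium beta (−0.34 in CAST 1 and −0.74 in hybrid 2) and calcium alpha2delta subunits (−0.64 and −0.30) had medians below 0, and the pore-forming EAG (0.39 and 0.26) and HCN channels (0.20 and 0.32) above 0. Calcium- or sodium-activated potassium channels, with a median exon length of 7182 bases, were at −1.39 in CAST 1 but at 0.77 in hybrid 2 (2 of 8 below 0). The part of exon length in these class differences was not tested. Over the 114 tested channel genes the median log2 difference of CAST 1 was −0.65. Single genes lay far to either side of it. Scn2a (−2.95) was at 21.7 CPM in CAST 1 and at 175 and 164 CPM in CAST 2 and 3. Cacng7 (1.24), with shorter exons in all, was at 162, 71.3 and 65.7 CPM. Without CAST 1 and hybrid 2, the counts of called channel genes were 3, 5 and 3 in CAST against 129, hybrid against 129 and hybrid against CAST, while 1.52%, 9.73% and 6.24% of all genes were called. Kept were Kcnj5 and Kcnmb3 in CAST against 129, Cacna1f, Kcna6, Kcnk7 and Kcnk9 in the hybrid against 129, and Cacna1f, Kcna6 and Scn3b against CAST. Lost were Kcnh1 and Kcnmb3 in the hybrid against 129 (adjusted p = 0.0653 for each by edgeR) and Kcnk7 against CAST (0.0668), and gained were Scn3b in CAST against 129 and Kcnj5 in the hybrid against 129.

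**Figure D5:**
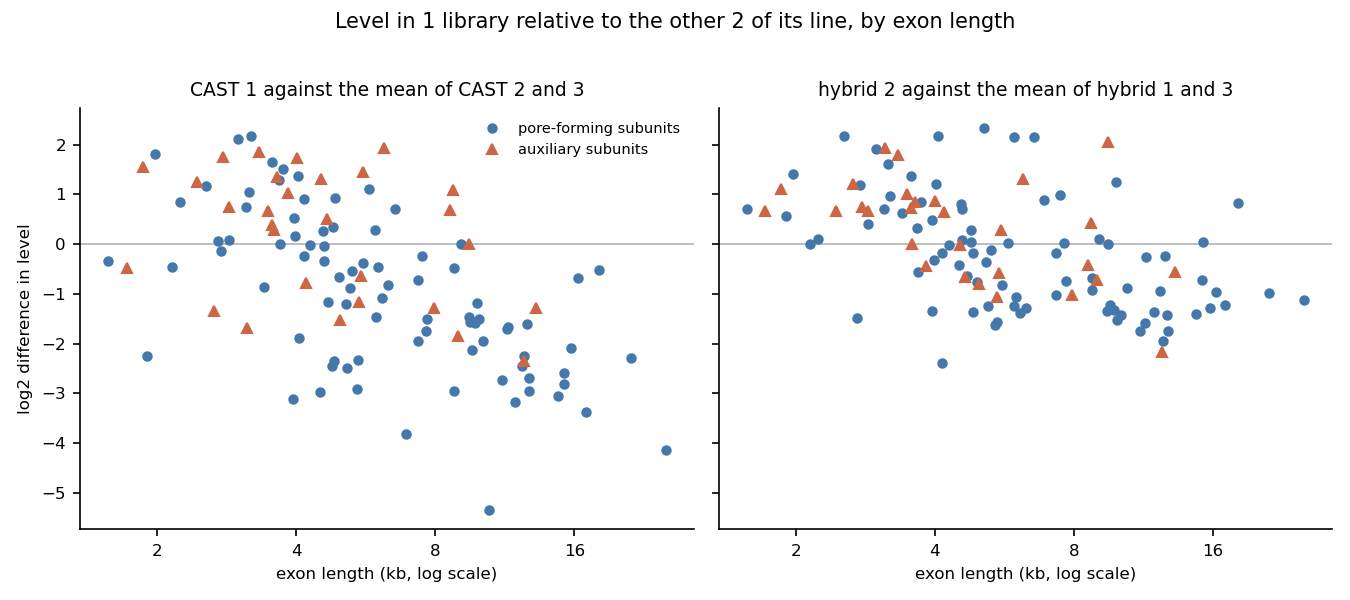
Log2 difference (vertical axes) of each tested channel gene in CAST 1 from the mean of CAST 2 and 3 (left) and in hybrid 2 from the mean of hybrid 1 and 3 (right), against exon length in kb (log scale), with circles for pore-forming and triangles for auxiliary subunits. Points slope down to the right in both panels (r = −0.59 and −0.51, n = 114).

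Other genes of electrical signalling were read by list. Over all genes, edgeR called 0.917%, 7.02% and 6% in CAST against 129, hybrid against 129 and hybrid against CAST. An unadjusted p under 0.05 was found in 14.6%, 22.2% and 15.8% of all genes. At these shares, 0 or 1 call in a list this short is no result about the list. Among 53 tested channels outside the symbol rule (TRP, chloride, proton and acid-sensing channels among them), 0 were called by edgeR in CAST against 129 (DESeq2 called 6, and 7 had an unadjusted edgeR p under 0.05), and 2 were higher in the hybrid in both of its comparisons: Trpm5, a calcium-activated cation channel (log2 fold change 5.30 against 129 and 4.28 against CAST), and Hvcn1, a voltage-gated proton channel (2.29 and 3.91). Trpm5 was at 0.17, 0.06 and 0.11 CPM in 129, 6.65, 5.45 and 2.52 in hybrid libraries and 0, 0.45 and 0.22 in CAST, a pattern over the lines like that of Cacna1f and Kcnk7. Like these 2 genes, Trpm5 passed the filter only through the hybrid, so it had to be high there to be tested. None of 22 tested genes of channel anchoring, the axon initial segment and the node of Ranvier was called by edgeR in any comparison, while DESeq2 called 0, 3 and 1, and 2, 4 and 2 had an unadjusted p under 0.05, with medians of −0.42, −0.95 and −0.47 in CAST against 129, hybrid against 129 and hybrid against CAST. Of 22 channel-associated genes, Stac3, a partner of the muscle calcium channel, was higher in the hybrid than in 129 (2.31, adjusted p = 0.0303 by edgeR), and of 9 repressors of neuronal genes Rcor2, a corepressor that works with REST, was higher there too (2.12, adjusted p = 0.0140 by edgeR). Of 17 alternative analyses, 10 did not call Stac3 (adjusted p up to 0.146) and 5 did not call Rcor2 (up to 0.0938), in each case also without any 1 of the 129 libraries. The 15 pump and chloride transporter genes gave 0 calls by edgeR in all 3 comparisons, with 1, 0 and 1 at an unadjusted p under 0.05, the same number by DESeq2.

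Channels known from other cells were read beside the markers of those cells, a choice made after their values were seen. Kcnmb1, the BK subunit of smooth muscle, was at 27.7, 13.8 and 4.71 CPM in 129, 23.8, 25.7 and 11.3 in hybrid libraries and 4.85, 8.76 and 8.31 in CAST, where smooth muscle markers summed to 5832, 5701 and 1194, 6671, 13077 and 1204, and 6411, 2042 and 3112 CPM. In 129 and the hybrid, library 3 was lowest of its line in both, whereas CAST 1 was highest of its line in these markers and lowest in Kcnmb1. Kcnj10, the potassium channel of astrocytes, was at 30.5, 4.57 and 3.73 CPM in 129, 25.8, 4.75 and 8.94 in hybrid libraries and 1.34, 11.96 and 11.5 in CAST. Astrocyte and radial glia markers summed to 3479, 2066 and 1326, 3278, 6408 and 5182, and 3656, 3839 and 3424 CPM in the same order, so that hybrid 1 was highest of its line in Kcnj10 and lowest in these markers. Neither was called in any comparison, and for both the range within 129 was wider than the span between the means of the lines.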

How the data were processed

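Raw counts, whole numbers of reads per Ensembl gene, were deposited by the authors for 9 libraries. STAR alignment to mm10 is stated per the submitters' processing notes. Not given in the sources used here are STAR's version, the counting tool, its annotation and its strand setting. Polyadenylated RNA was reverse transcribed from random hexamers, per the labels' protocols. A further 2 CAST samples, numbered 7 and 8, were not analysed here.

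Symbols, coordinates and exon lengths came from GENCODE M21 (GRCm38), with a symbol for 27030 of 27071 rows. Genes were kept by filterByExpr (minimum count 10, total 15, proportion 0.7), which left 14839, scaled by TMM and fitted in 1 robust quasi-likelihood model of the 3 lines with edgeR 4.0.16 in R 4.3.3, with no covariates. P-values are two-sided and Benjamini-Hochberg adjusted over the 14839 genes, and 0.05 was the threshold. Levels are TMM-scaled CPM, as mean ± SD with n = 3. Library differences used log2 of CPM plus 0.25. Length slopes are of log2 level relative to the mean over libraries. Intervals and floors cover counting error only, and depth, 7763077 to 18167577 counts, limits genes under about 1 CPM.

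Genes named are those past the threshold, the 3 smallest p in each direction, the 2 highest per kb in each class, and known motor neuron channels, and others are given as examples. Some genes that this rule names are not reported here. The genes and lists were chosen with earlier results of these data known. Alternatives were RLE scaling, DESeq2 1.42.0, limma-voom (limma 3.58.1), no filter, only the groups compared, a replicate block, each library left out, CAST 1 and hybrid 2 left out, and a per-library lowess offset for exon length. The code was tested on simulated data for CAST against 129 with 14839 genes: edgeR called 26 of 100 genes changed by 2 on the log2 scale and 75 of 100 changed by 4, with 5 false calls.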

Additional observations from a re-analysis of the deposited data

How the results depend on the processing

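Of the counts of channel genes called, DESeq2 gave 6, 13 and 11 in CAST against 129, hybrid against 129 and hybrid against CAST (6.33%, 14.2% and 10.8% of all genes), in place of 2, 6 and 4. The exon length offset gave 4, 4 and 5 (1.80%, 7.56% and 6.90% of all genes): it added Kcnk9 and Scn3b in CAST against 129 and Kcnj5 in both hybrid comparisons, and lost Kcnk7 (adjusted p = 0.0878), Kcnmb3 (0.0872) and Kcnh1 (0.0524, all by edgeR) in hybrid against 129. With 1 library left out the counts ran from 0 to 2, 1 to 11 and 2 to 4, and the shares of all genes from 0.17% to 1.04%, 3.41% to 11.2% and 4.19% to 6.02%. The count of 0 in CAST against 129 arose without 129 1, 129 2, 129 3 or CAST 2, and the 11 without CAST 1. RLE scaling called the same 2, 6 and 4 genes. Limma-voom gave the same counts, but in hybrid against 129 it lost Kcnh1 (0.0538) and gained Kcnj5 (0.0316), and no call changed its sign in any alternative. With the replicate block the counts were 0, 2 and 2, while 0.0404%, 3.78% and 3.54% of all genes were called, and 12 channel genes had an unadjusted p under 0.05 in CAST against 129. The replicate numbers were not taken as pairs: of 9 same-number pairs, 2 had a correlation of their deviations above 0.1 (range −0.72 to 0.49), and 0 libraries correlated best with their own number in both other lines. Among summed class levels, the offset moved calcium alpha1 in 129 from 730.2 to 499.6 CPM, calcium- or sodium-activated potassium channels from 114.3 to 80.8 and sodium beta from 123.6 to 141.8, and 117 other values moved by less than 1 SD. Depth limits Cacna1f, Kcnk7 and Kcnmb3, each resting on under 60 counts in the hybrid.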
